A study of Mus musculus with 10 samples.

Results

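Fc receptors bind the constant part of antibodies and carry the signal of a bound antibody into the cell or the antibody itself across it. The 6 genes described here, Fcgr1, Fcgr2b, Fcgr3, Fcgr4, Fcer1g and Fcgrt, were chosen by gene symbol from a table of raw counts with 18603 genes. All 6 were present, all 6 were among the 15883 genes with enough counts to be tested, and the rule that picks them reads no measured value. They were nonetheless chosen with earlier results of these data known. The tumours were grown from RENCA, an established kidney cancer line of Balb/c mice, under the skin of female Balb/c mice. The SLR14 group, 5 tumours from 5 mice, was injected into the tumour with SLR14, a 3pRNA stem-loop ligand of the RNA sensor RIG-I carried by lipid nanoparticles in 50 µL of PBS. The PBS group, 5 tumours from 5 mice, received PBS, the vehicle, so the ligand and its lipid carrier cannot be told apart in the contrast. Mice entered the groups at random once a tumour reached 100 to 150 mm3. Each tumour was injected 3 times, with 48 h between injections, and was taken 24 h after the third. The question is how the antibody receptor genes of the whole tumour differed after the RIG-I agonist.

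As background, mouse Fcgr1, Fcgr3 and Fcgr4 encode the activating receptors for IgG on macrophages, monocytes, neutrophils and, for Fcgr3, natural killer cells. None of these receptors signals well alone: they pair with the Fc receptor gamma chain encoded by Fcer1g, which carries an ITAM, a tyrosine motif that recruits the kinase Syk and starts phagocytosis and the oxidative burst. Fcgr2b encodes the inhibitory IgG receptor, whose ITIM motif recruits the phosphatase SHIP1, and the balance of activating and inhibitory receptors sets how strongly a myeloid cell answers an antibody-coated target. Fcgrt encodes the heavy chain of FcRn, which pairs with beta-2 microglobulin and rescues IgG and albumin from breakdown inside macrophages and endothelium.

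Fcgr2b and Fcgr3 lie close together on chromosome 1 and resemble each other in the antibody-binding region, which limits how far short reads can be assigned to one or the other. The longest stretch of coding sequence the pair shares without a mismatch measured 129 bases and is shown because reads within it carry no information on which gene they came from. It spans exons 3 to 4 of both genes, on the minus strand of GRCm38 (GENCODE M21) at chr1:170966674-170968081 in Fcgr2b and chr1:171054167-171057792 in Fcgr3, an intron included in each. GRCm38 is not the mm39 build that the submitters name.
Shared coding run of Fcgr2b and Fcgr3: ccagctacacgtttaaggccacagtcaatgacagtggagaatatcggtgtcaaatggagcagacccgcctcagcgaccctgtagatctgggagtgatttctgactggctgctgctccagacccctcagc
Of all 50-base stretches of their protein-coding transcripts, 166 were shared, 10.2% of the 1627 of Fcgr3 and 4.48% of the 3708 of Fcgr2b. No 50-base stretch was shared between any other pair of the 6 genes, and the longest coding run between other pairs of the IgG receptors was 9 to 14 bases. How the authors' counting treated such reads was not given in the sources used here. The counts of Fcgr2b and Fcgr3 are uncertain to that extent.

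The promoters of the IgG receptors differ in the short motifs they hold. The 250 bases before the start of Fcgr1, Fcgr4, Fcgr2b and Fcer1g are shown, because Fcgr1 and Fcgr4 hold letters that interferon-activated factors read and the other pair does not. The windows come from RefSeq on GRCm38.p6, where 6 of 6 genes matched by symbol, and run 5′ to 3′ along each gene's own strand. Capitals mark matches, on either strand, to TTCNNNGAA (the GAS element of interferon-responsive promoters), GAAA and GAAA with any 2 bases between them (the ISRE type bound by interferon regulatory factors) or GAGGAA (the core of PU.1, the macrophage lineage factor encoded by Spi1).
Fcgr1, chr3:96293970-96294219, minus strand: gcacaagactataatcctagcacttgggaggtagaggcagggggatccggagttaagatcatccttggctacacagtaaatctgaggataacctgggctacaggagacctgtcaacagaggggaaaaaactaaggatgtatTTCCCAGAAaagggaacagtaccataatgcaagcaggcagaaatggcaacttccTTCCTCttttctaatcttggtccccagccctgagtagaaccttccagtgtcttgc
Fcgr4, chr1:171018676-171018925, plus strand: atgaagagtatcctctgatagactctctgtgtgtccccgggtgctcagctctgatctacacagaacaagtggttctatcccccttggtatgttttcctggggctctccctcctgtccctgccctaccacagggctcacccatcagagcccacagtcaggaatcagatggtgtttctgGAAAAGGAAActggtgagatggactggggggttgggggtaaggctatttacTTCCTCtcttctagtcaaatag
Fcgr2b, chr1:170976072-170976321, minus strand: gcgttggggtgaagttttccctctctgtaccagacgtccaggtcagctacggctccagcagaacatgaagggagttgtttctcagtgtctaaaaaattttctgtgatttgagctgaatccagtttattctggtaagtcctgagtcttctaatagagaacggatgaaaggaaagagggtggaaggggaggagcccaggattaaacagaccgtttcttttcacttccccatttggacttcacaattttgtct
Fcer1g, chr1:171234350-171234599, minus strand: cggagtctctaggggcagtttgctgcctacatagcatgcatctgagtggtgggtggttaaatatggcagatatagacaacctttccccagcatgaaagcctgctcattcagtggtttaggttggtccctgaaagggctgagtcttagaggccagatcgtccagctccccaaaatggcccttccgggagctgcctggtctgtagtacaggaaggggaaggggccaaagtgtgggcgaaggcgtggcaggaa
Fcgr1 held a GAS match, TTCCCAGAA, 109 bases before its start and a PU.1 match, TTCCTC on this strand, 55 bases before it. Fcgr4 held an ISRE match, GAAAAGGAAA, 73 bases before its start and a PU.1 match 22 bases before it. Both RefSeq starts of Fcgr3 had a PU.1 match, 6 and 15 bases upstream, and neither had another match. The windows of Fcgr2b, Fcer1g and Fcgrt held none of the 3 motifs. The matches did not overlap. Over all 32851 RefSeq mouse promoter windows of the same 250 bases, 7.02% held the GAS letters, 2.98% the ISRE letters and 23.3% the PU.1 letters. A match is a description of these letters and not evidence of binding.

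None of the 6 genes differed between SLR14 and PBS tumours past an adjusted p of 0.05 in edgeR's quasi-likelihood test with Benjamini-Hochberg adjustment over all genes. In the same test 0.963% of all genes tested passed, 153 of 15883, with 0.674% higher and 0.29% lower in SLR14 tumours. At an unadjusted p under 0.05 there were 3 of the 6, Fcgr1, Fcer1g and Fcgrt, against 10.8% of all genes. DESeq2 called 1 of the 6, Fcer1g, and 2.19% of the genes it tested. Limma voom called 0 of the 6 and, with sample quality weights, 1, again Fcer1g, when 2.2% of all genes were called. The fitted log2 fold changes were positive for Fcgr1, Fcgr4 and Fcer1g and negative for Fcgr2b, Fcgr3 and Fcgrt. Their signs were the same in all 20 alternative fits, while the median over all genes tested was -0.01.

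Total counts ranged from 17931895 to 39842608 per tumour, and values below are CPM (counts scaled to the library's total, with TMM factors) unless a length is named. Markers of the RENCA lineage were present: the summed CPM of 8 renal epithelial genes, most of it from Krt8 and Krt18, was 2594 to 3135 in SLR14 tumours and 2477 to 3087 in PBS tumours. Of the 8, 1 was lower in SLR14 tumours, Epcam (log2 fold change -2.42, edgeR adjusted p 0.0324). None of the 8 was higher past the threshold. Cdh16 had 187 to 294 CPM in SLR14 tumours and 315 to 409 CPM in PBS tumours (log2 fold change -0.52, edgeR adjusted p 0.0788). Macrophage markers were abundant, with a summed CPM over 9 genes of 2582 to 3434 in SLR14 tumours and 2647 to 3124 in PBS tumours, and 0 of the 9 passed the test. PBS tumour 5 and SLR14 tumour 2 stood apart from their groups in earlier results of these data, so values without both are given for some genes. Leaving both out enlarged some differences, such as that of Fcgr1, and shrank others, such as those of Fcer1g and Cebpb.

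**Figure D1:**
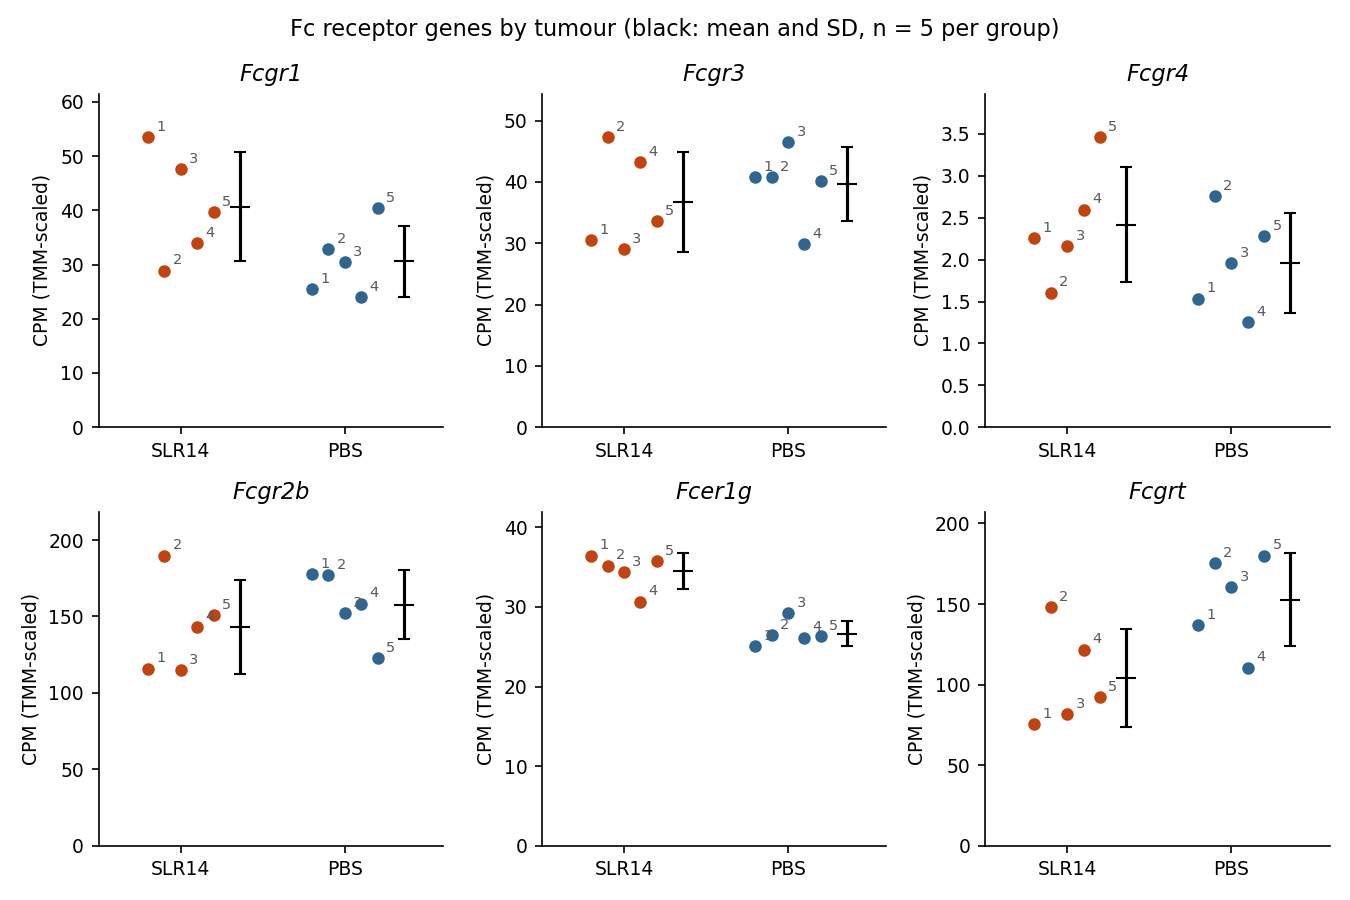
CPM of each of the 6 Fc receptor genes in every tumour, one panel a gene with its own linear axis from 0; SLR14 tumours are on the left and PBS tumours on the right, points are tumours 1 to 5, and bars are the mean and SD. Only the Fcer1g panel shows groups that do not overlap, with SLR14 tumours at 30.7 to 36.5 CPM and PBS tumours at 25.1 to 29.3 CPM.

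Fcgr1 (ENSMUSG00000015947, chromosome 3) encodes the high-affinity IgG receptor. It had 53.5, 28.9, 47.6, 33.9 and 39.6 CPM in SLR14 tumours 1 to 5, against 25.5, 32.8, 30.4, 24.0 and 40.5 CPM in PBS tumours 1 to 5. SLR14 tumours 1 and 3 lay above every PBS tumour, and SLR14 tumours 2, 4 and 5 lay among the PBS tumours, so the groups overlapped. PBS tumour 5 was the highest of its group. The means were 40.7 ± 9.99 CPM in SLR14 tumours and 30.6 ± 6.54 CPM in PBS tumours (SD, n = 5 each), a log2 fold change of 0.41 (SE 0.18, 95% interval 0.03 to 0.79) with an edgeR adjusted p of 0.429. Without PBS tumour 5 and SLR14 tumour 2 the log2 fold change was 0.63 with an edgeR adjusted p of 0.0534. In a whole tumour, fewer cells that express a gene and less of its RNA per cell cannot be told apart, here and in all that follows.

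Fcgr3 (ENSMUSG00000059498, chromosome 1) encodes the low-affinity activating receptor of macrophages, neutrophils and natural killer cells. It had 30.5, 47.3, 29.0, 43.3 and 33.6 CPM in SLR14 tumours 1 to 5, against 40.8, 40.8, 46.5, 29.8 and 40.1 CPM in PBS tumours 1 to 5. The ranges nearly coincided, with SLR14 tumour 2 the highest of all and SLR14 tumour 3 the lowest. The means were 36.7 ± 8.10 CPM in SLR14 tumours and 39.6 ± 6.05 CPM in PBS tumours (SD, n = 5 each). The log2 fold change was -0.11 (SE 0.15, 95% interval -0.44 to 0.22) with an edgeR adjusted p of 0.790. Natural killer markers were scarce in all tumours: none of 5 was tested, 3 were not in the count table, and Ncr1 and Eomes together summed to 0.293 to 0.738 CPM in SLR14 tumours and 0.0599 to 0.698 CPM in PBS tumours.

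Fcgr4 (ENSMUSG00000059089, chromosome 1) encodes an activating receptor of monocytes, macrophages and neutrophils that binds IgG2a and IgG2b. It was the scarcest of the 6, at 2.26, 1.61, 2.16, 2.60 and 3.46 CPM in SLR14 tumours 1 to 5, against 1.53, 2.76, 1.96, 1.26 and 2.28 CPM in PBS tumours 1 to 5. SLR14 tumour 5 was the highest and PBS tumour 4 the lowest, and the groups overlapped. Its lowest count was 27, in SLR14 tumour 2, with an exact Poisson 95% interval of 17.8 to 39.3 that covers counting error only. The means were 2.42 ± 0.685 CPM in SLR14 tumours and 1.96 ± 0.596 CPM in PBS tumours (SD, n = 5 each), a log2 fold change of 0.32 (SE 0.26, 95% interval -0.24 to 0.87) with an edgeR adjusted p of 0.662.

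Fcgr2b (ENSMUSG00000026656, chromosome 1), the inhibitory receptor, had the most counts of the 4 IgG receptors. It had 115.8, 189.9, 115.0, 143.0 and 150.9 CPM in SLR14 tumours 1 to 5, against 177.8, 177.0, 152.2, 158.4 and 122.9 CPM in PBS tumours 1 to 5. SLR14 tumours 1 and 3, the highest for Fcgr1, were the lowest here, SLR14 tumour 2 was the highest of all, and PBS tumour 5 was the lowest PBS tumour. The means were 143 ± 30.8 CPM in SLR14 tumours and 158 ± 22.5 CPM in PBS tumours (SD, n = 5 each). The log2 fold change was -0.14 (SE 0.15, 95% interval -0.46 to 0.18), with an edgeR adjusted p of 0.727. Without PBS tumour 5 and SLR14 tumour 2 it was -0.35, with an edgeR adjusted p of 0.139.

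Fcer1g (ENSMUSG00000058715, chromosome 1), the signalling chain the activating receptors share, was the steadiest of the 6 within each group. It had 36.5, 35.2, 34.3, 30.7 and 35.8 CPM in SLR14 tumours 1 to 5, against 25.1, 26.5, 29.3, 26.1 and 26.3 CPM in PBS tumours 1 to 5. Every SLR14 tumour lay above every PBS tumour, so Fcer1g was the 1 of 6 genes whose groups did not overlap, where 3.24% of all genes tested, 515, had groups that did not overlap, 1.92% with SLR14 higher and 1.32% with SLR14 lower. The means were 34.5 ± 2.27 CPM in SLR14 tumours and 26.7 ± 1.55 CPM in PBS tumours (SD, n = 5 each), a fold of 1.29. The log2 fold change was 0.37 (SE 0.08, 95% interval 0.19 to 0.55) with an unadjusted p of 0.00064 and an edgeR adjusted p of 0.0598. The call depended on the test. DESeq2 called it (0.38, adjusted p 0.00215), as did limma voom with quality weights (0.39, adjusted p 0.0104) and edgeR without PBS tumour 5 (0.36, adjusted p 0.0421). Without any other single tumour, edgeR's adjusted p stayed above 0.05 and reached at most 0.197. Without both PBS tumour 5 and SLR14 tumour 2 the log2 fold change was 0.355 with an edgeR adjusted p of 0.0696.

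Fcer1g is carried by many myeloid cells, and the markers of some of them differed between the groups. Of 5 neutrophil markers tested, 3 were higher in SLR14 tumours (S100a8, S100a9 and Mmp8), and the summed CPM of the 6 neutrophil markers in the table was 17.1 to 50.7 in SLR14 tumours and 11.2 to 16.0 in PBS tumours, with no overlap. Dendritic cell markers went the other way, with 2 of 3 tested lower in SLR14 tumours (Cd209a and Zbtb46), and summed to 2.44 to 3.57 CPM in SLR14 tumours and 7.08 to 9.97 CPM in PBS tumours. Of 4 monocyte markers tested 0 passed, and the monocyte sum was 47.9 to 97.2 CPM in SLR14 tumours and 56.2 to 76.4 CPM in PBS tumours. Mast cells and basophils, where Fcer1g serves the IgE receptor, had 1 of 6 markers in the count table, Kit, at 1.73 to 2.80 CPM in SLR14 tumours and 0.581 to 4.49 CPM in PBS tumours. The pan-leukocyte gene Ptprc averaged 76.4 CPM in SLR14 tumours and 79.4 CPM in PBS tumours. The part of these cell types in the values of Fcer1g was not tested.

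Fcgrt (ENSMUSG00000003420, chromosome 7), the FcRn heavy chain, had the largest fitted difference of the 6 in size. It had 75.6, 148.0, 81.4, 121.7 and 92.3 CPM in SLR14 tumours 1 to 5, against 136.8, 175.4, 160.5, 110.5 and 180.1 CPM in PBS tumours 1 to 5. SLR14 tumours 1, 3 and 5 lay below every PBS tumour, SLR14 tumours 2 and 4 lay among the PBS tumours, and all 5 lay below the PBS mean. The means were 104 ± 30.4 CPM in SLR14 tumours and 153 ± 29.0 CPM in PBS tumours (SD, n = 5 each), a fold of 0.679. The log2 fold change was -0.56 (SE 0.19, 95% interval -0.96 to -0.15) with an unadjusted p of 0.0108 and an edgeR adjusted p of 0.273. Without PBS tumour 5 and SLR14 tumour 2 it was -0.66 with an edgeR adjusted p of 0.0658. Its partner B2m, the beta-2 microglobulin gene, averaged 1129 ± 136 CPM in SLR14 tumours and 751 ± 125 CPM in PBS tumours (SD, n = 5 each), a log2 fold change of 0.59 (SE 0.13) with an edgeR adjusted p of 0.0536. The heavy chain and its partner had fitted values of opposite sign and neither passed in edgeR, though B2m did without PBS tumour 4 (edgeR adjusted p 0.0263). DESeq2 and limma voom with quality weights called B2m (adjusted p 0.00151 and 0.0111) and did not call Fcgrt. Endothelium, which also carries FcRn, had 0 of 5 markers past the test and a summed CPM of 110 to 160 in SLR14 tumours and 94.2 to 188 in PBS tumours.

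Levels were compared between genes per kilobase of protein-coding exon (GENCODE M21 exon unions), since longer transcripts gather more counts. In SLR14 tumours the order of mean CPM per kilobase was Fcgrt at 58.2, Fcer1g at 46.1, Fcgr2b at 37.5, Fcgr3 at 22.6, Fcgr1 at 15.7 and Fcgr4 at 1.92. In PBS tumours it was Fcgrt at 85.7, Fcgr2b at 41.4, Fcer1g at 35.6, Fcgr3 at 24.3, Fcgr1 at 11.8 and Fcgr4 at 1.56. Neighbours in the order had overlapping ranges over tumours for Fcgrt and Fcer1g, Fcer1g and Fcgr2b, and Fcgr3 and Fcgr1 in SLR14 tumours, and for Fcgr2b and Fcer1g in PBS tumours. The order was the same with the longest coding transcript of each gene, but it rests on the length used. At its shortest annotated coding transcript (1084 bases) Fcgr2b would be at 132 CPM per kilobase in SLR14 tumours and 145 in PBS tumours. Fcgr3 (547 bases) would be at 67.2 CPM per kilobase in SLR14 tumours and 72.4 in PBS tumours, and Fcgrt (127 bases) at 817 in SLR14 tumours and 1202 in PBS tumours. Which transcripts the tumours made was not measured.

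Among the 4 IgG receptors, the inhibitory receptor took the largest share of CPM per kilobase of exon union in both groups, a ranking that depends on the lengths just given. Fcgr2b made up 47.9 ± 4.86% in SLR14 tumours and 52.3 ± 6.29% in PBS tumours (SD, n = 5 each). Fcgr3 made up 28.8 ± 3.58% in SLR14 tumours and 30.7 ± 3.46% in PBS tumours. The high-affinity receptor Fcgr1 made up 20.8 ± 7.02% in SLR14 tumours, from 12.2 to 28.9%, and 15.0 ± 3.52% in PBS tumours, from 11.9 to 21.0%. Fcgr4 made up 2.51 ± 0.753% in SLR14 tumours and 1.96 ± 0.525% in PBS tumours.

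**Figure D2:**
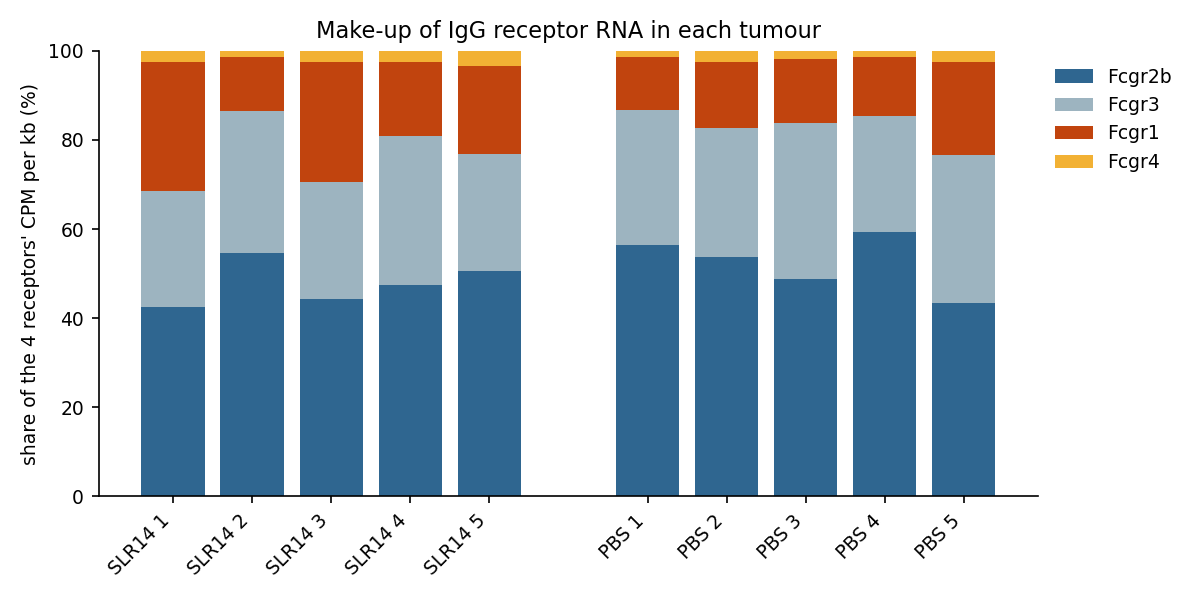
Share of each IgG receptor in the summed CPM per kilobase of Fcgr1, Fcgr2b, Fcgr3 and Fcgr4, one stacked bar a tumour, SLR14 tumours 1 to 5 on the left and PBS tumours 1 to 5 on the right, axis in percent from 0. Fcgr2b holds 42.4 to 54.6% of each SLR14 tumour's total and 43.4 to 59.3% of each PBS tumour's.

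The ratio of each activating receptor to the inhibitory one was taken within each tumour, so that the measure holds the balance of the receptors and not their total. Ratios are log2 of CPM plus a pseudocount of 0.5. Fcgr1 over Fcgr2b was -1.11, -2.70, -1.26, -2.06 and -1.92 in SLR14 tumours 1 to 5, against -2.78, -2.41, -2.31, -2.70 and -1.59 in PBS tumours 1 to 5. SLR14 tumours 1 and 3 lay above all PBS tumours, while SLR14 tumours 2, 4 and 5 lay within the PBS range. PBS tumours 2, 3, 4 and 5 lay within the SLR14 range. The difference was 0.55 (SE 0.36), with a two-sided exact permutation p of 0.159 (n = 5 each, 0.310 adjusted over 3 ratios). Fcgr3 over Fcgr2b differed by 0.04 (SE 0.16, exact permutation p = 0.817), with means of -1.95 ± 0.159 in SLR14 tumours and -1.98 ± 0.324 in PBS tumours. Fcgr4 over Fcgr2b differed by 0.40 (SE 0.30, exact permutation p = 0.206, 0.310 adjusted), with means of -5.63 ± 0.498 in SLR14 tumours and -6.03 ± 0.444 in PBS tumours. The smallest p that 5 against 5 allows is 0.00794, and no ratio passed. Without SLR14 tumour 2 alone, the difference for Fcgr4 over Fcgr2b was 0.62 (exact permutation p = 0.0317, 0.0952 adjusted over 3 ratios). Without PBS tumour 5 and SLR14 tumour 2, the groups no longer overlapped for Fcgr1 or Fcgr4 over Fcgr2b, with differences of 0.96 and 0.76. Each exact permutation p was 0.0286, the smallest that 4 against 4 allows (0.0429 adjusted over 3 ratios). In both ratios PBS tumour 5 was the highest of its group and SLR14 tumour 2 the lowest of its own. They were set aside with their values known, so the separation is no support for a difference.

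**Figure D3:**
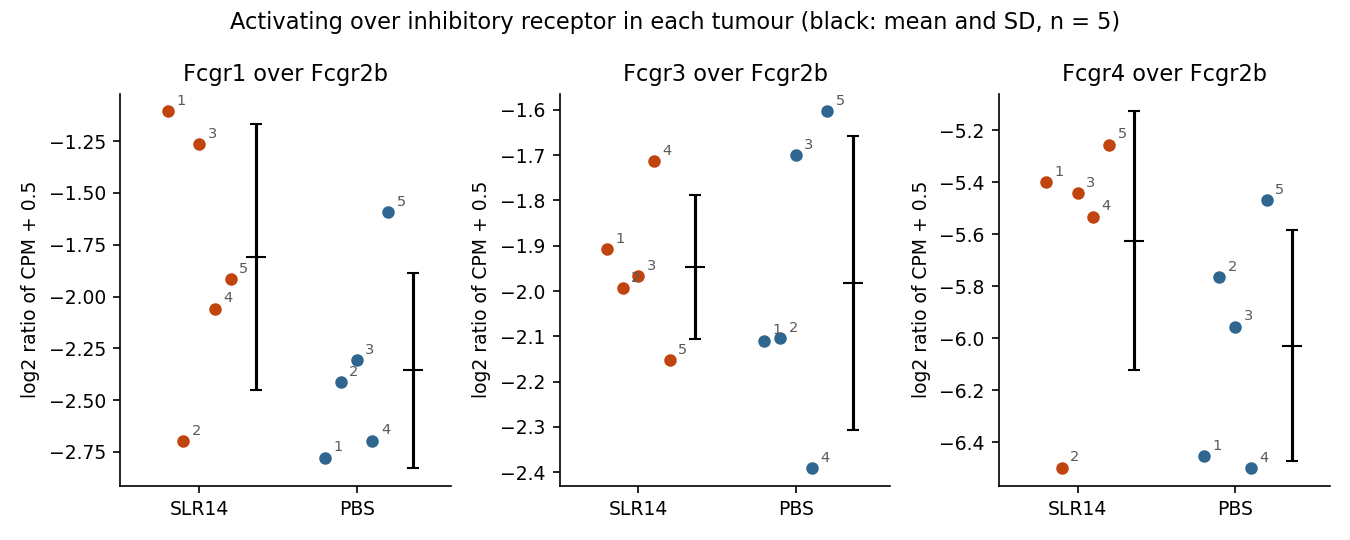
Log2 ratio of Fcgr1, Fcgr3 and Fcgr4 CPM to Fcgr2b CPM in each tumour, SLR14 on the left and PBS on the right of each panel, with mean and SD bars. The Fcgr1 ratio spans -2.70 to -1.11 in SLR14 tumours and -2.78 to -1.59 in PBS tumours, and the groups overlap in every panel.

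Over the 10 tumours, Fcgr1 and Fcgr2b ran in opposite directions. Of 15 pairs of the 6 genes compared on log2(CPM + 1), this pair had the strongest correlation, with a Pearson r of -0.83 (permutation p = 0.00348, 0.0522 adjusted over 15 pairs) and a Spearman rho of -0.87 (permutation p = 0.00227, 0.0340 adjusted). The r was -0.63 without SLR14 tumours 1 and 3, the 2 farthest from the median of Fcgr1, -0.84 without PBS tumour 5 and SLR14 tumour 2, and -0.83 for deviations from the group means. Fcgr3 and Fcgrt, by contrast, ran together, with a Pearson r of 0.81 (permutation p = 0.00781, 0.0586 adjusted) and a Spearman rho of 0.61 (permutation p = 0.0674, 0.202 adjusted). Their r was 0.79 without the 2 tumours farthest from the median of Fcgr3, PBS tumour 4 and SLR14 tumour 3, and 0.90 for deviations from the group means. After adjustment over the 15 pairs only the Spearman correlation of Fcgr1 and Fcgr2b passed. Its Pearson correlation, both correlations of Fcgr3 and Fcgrt, and those of the other 13 pairs did not.

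**Figure D4:**
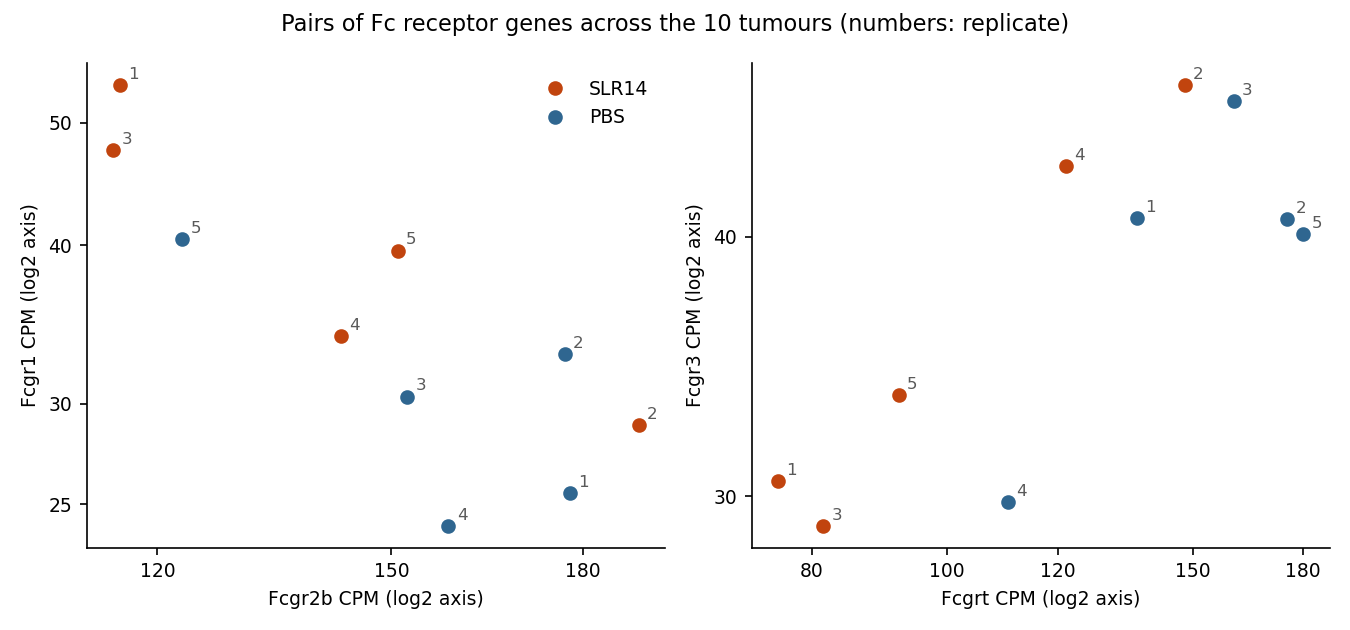
CPM of Fcgr1 (vertical) against Fcgr2b (horizontal) on the left and of Fcgr3 (vertical) against Fcgrt (horizontal) on the right, on log2 axes, with one point a tumour, SLR14 in red and PBS in blue, numbered by tumour. The points slope down for Fcgr1 and Fcgr2b (r = -0.83) and up for Fcgr3 and Fcgrt (r = 0.81) over the 10 tumours.

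The genes whose pattern was most like each receptor's were ranked by Pearson r of log2(CPM + 1) over the 10 tumours among 12088 genes with a mean of at least 1 CPM. These values are a description, with no test. Fcgr1 was most like Ifi35 (r = 0.93), an interferon-induced gene, then Hacd3 and Slfn3 (0.92 each). None of these differed between the groups past the threshold (log2 fold changes of 0.30, 0.12 and 0.27, edgeR adjusted p of 0.540, 0.677 and 0.592). Fcgr2b was most like E4f1 (0.91), Abcb9 (0.90) and Sav1 (0.90), and Fcgr4 most like Ctxnd1 (0.92), Sh3bp5l (0.90) and Id1 (0.86). Fcgr3 was most like F2rl1 (0.91), Folr2, a folate receptor of resident-type macrophages (0.90), and Cln3 (0.89). Fcgrt was most like Cbr2 (0.96), Folr2 (0.96) and Fcna, a ficolin made by macrophages (0.94), so Folr2 stood near the top for both, and its r held within groups (0.94 with Fcgr3 and 0.97 with Fcgrt for deviations from the group means). Fcer1g was most like Trim30d (0.95), Tmem39b (0.94) and H2-T24 (0.94). Trim30d and H2-T24 were higher in SLR14 tumours (log2 fold changes of 2.81 and 1.61, edgeR adjusted p of 0.000687 and 0.000406), and their r with Fcer1g was 0.60 and 0.51 for deviations from the group means, against 0.93 for Tmem39b.

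The pathway downstream of the receptors was described with lists chosen with earlier results of these data known. Of 22 genes of activating ITAM signalling, all tested, 0 passed in either direction, 5 had an unadjusted p under 0.05, 18 had a positive log2 fold change and the median was 0.13. Over all 15883 genes tested, 10.8% had an unadjusted p under 0.05, 7622 had a positive log2 fold change and the median was -0.01. Lat2, an adaptor that docks signalling proteins below the gamma chain, averaged 28.0 ± 3.89 CPM in SLR14 tumours and 18.8 ± 4.25 CPM in PBS tumours (log2 fold change 0.58, SE 0.15, edgeR adjusted p 0.102). Lat2 passed without PBS tumour 5 (edgeR adjusted p 0.00411), under DESeq2 (adjusted p 0.0107) and under limma voom with quality weights (adjusted p 0.00145).

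Of 12 genes on the inhibitory side, 0 passed and 1 had an unadjusted p under 0.05. The log2 fold change was positive for 8 of the 12, with a median of 0.11. The list holds ITIM receptors and other signalling genes as well as phosphatases and adaptors. Ptpn6, which encodes the phosphatase SHP-1, averaged 63.0 ± 3.07 CPM in SLR14 tumours and 53.6 ± 4.18 CPM in PBS tumours (log2 fold change 0.23, SE 0.08, edgeR adjusted p 0.307). Inpp5d, which encodes SHIP1, averaged 70.2 ± 5.71 CPM in SLR14 tumours and 54.4 ± 14.9 CPM in PBS tumours (0.37, SE 0.18, edgeR adjusted p 0.476), and its log2 fold change was 0.20 without PBS tumour 5. Of 18 genes of phagocytosis and the oxidative burst, 0 passed, 5 had an unadjusted p under 0.05, 16 had a positive log2 fold change and the median was 0.18. Cybb, the membrane subunit of the NADPH oxidase, averaged 109 ± 13.3 CPM in SLR14 tumours and 74.9 ± 11.9 CPM in PBS tumours (0.54, SE 0.12, edgeR adjusted p 0.0589). Itgb2, the beta chain of the complement receptor CR3, averaged 93.6 ± 7.83 CPM in SLR14 tumours and 76.0 ± 9.91 CPM in PBS tumours (0.30, SE 0.11, edgeR adjusted p 0.305). Cybb passed without PBS tumour 4 (edgeR adjusted p 0.0242), under DESeq2 (adjusted p 0.00592) and under limma voom with quality weights (adjusted p 0.00952).

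Of 14 other receptors that borrow the gamma chain, 9 were in the table and 8 were tested. In edgeR 0 passed, 6 had an unadjusted p under 0.05 (10.8% of all genes did), 5 had a positive log2 fold change and the median was 0.32. Clec4e, the receptor Mincle for fungal and mycobacterial lipids, averaged 4.82 ± 2.01 CPM in SLR14 tumours and 2.16 ± 0.799 CPM in PBS tumours (log2 fold change 1.13, SE 0.32, edgeR adjusted p 0.154). Clec4n, which encodes Dectin-2, averaged 58.1 ± 13.7 CPM in SLR14 tumours and 87.3 ± 19.1 CPM in PBS tumours (-0.59, SE 0.18, edgeR adjusted p 0.189). In edgeR neither passed, though DESeq2 called Clec4e (adjusted p 0.0187) and limma voom with quality weights called Clec4n (adjusted p 0.0451). The sums of the neutrophil and dendritic cell markers given above moved between the groups too, and their part in these values was not tested.

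Fcrlb was the one gene of the pathway lists to pass, 1 of 71 tested or 1.41%, near the 0.963% of all genes that passed, so the count says nothing particular of the lists. It encodes an intracellular relative of the Fc receptors known from B cells. It averaged 8.98 ± 1.01 CPM in SLR14 tumours and 5.62 ± 0.978 CPM in PBS tumours (SD, n = 5 each), and the SLR14 tumours, at 7.54 to 10.1 CPM, lay above the PBS tumours, at 4.88 to 7.25 CPM. The log2 fold change was 0.68 (SE 0.15) with an edgeR adjusted p of 0.0463, just inside the threshold. In edgeR it passed without PBS tumour 1 (adjusted p 0.0273) and missed without any other single tumour, where the adjusted p reached at most 0.151. It also missed without both PBS tumour 5 and SLR14 tumour 2 (0.64, edgeR adjusted p 0.0725). Of the 13 other Fc and immunoglobulin receptors listed, 4 were in the table, 3 were tested, 1 was higher and 0 lower. Of 2 B cell markers tested 0 passed, Ms4a1 was not in the count table, and the sum, mostly Pax5, was 22.8 to 28.8 CPM in SLR14 tumours and 16.0 to 33.2 CPM in PBS tumours. Of 14 immunoglobulin chain genes listed, 1 was in the table, the IgM heavy chain gene Ighm, at 9.98 ± 5.62 CPM in SLR14 tumours and 6.39 ± 3.51 CPM in PBS tumours (log2 fold change 0.66, SE 0.44, edgeR adjusted p 0.608). Without SLR14 tumour 5 its log2 fold change was 0.36.

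The 6 transcription factors named for myeloid Fc receptor genes all had positive log2 fold changes, with a median of 0.10, and 0 passed. Cebpb, a factor of myeloid inflammation, averaged 436 ± 71.0 CPM in SLR14 tumours and 355 ± 71.0 CPM in PBS tumours (log2 fold change 0.30, SE 0.15, edgeR adjusted p 0.496). Its log2 fold change was 0.15 without PBS tumour 5 and SLR14 tumour 2.

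**Figure D5:**
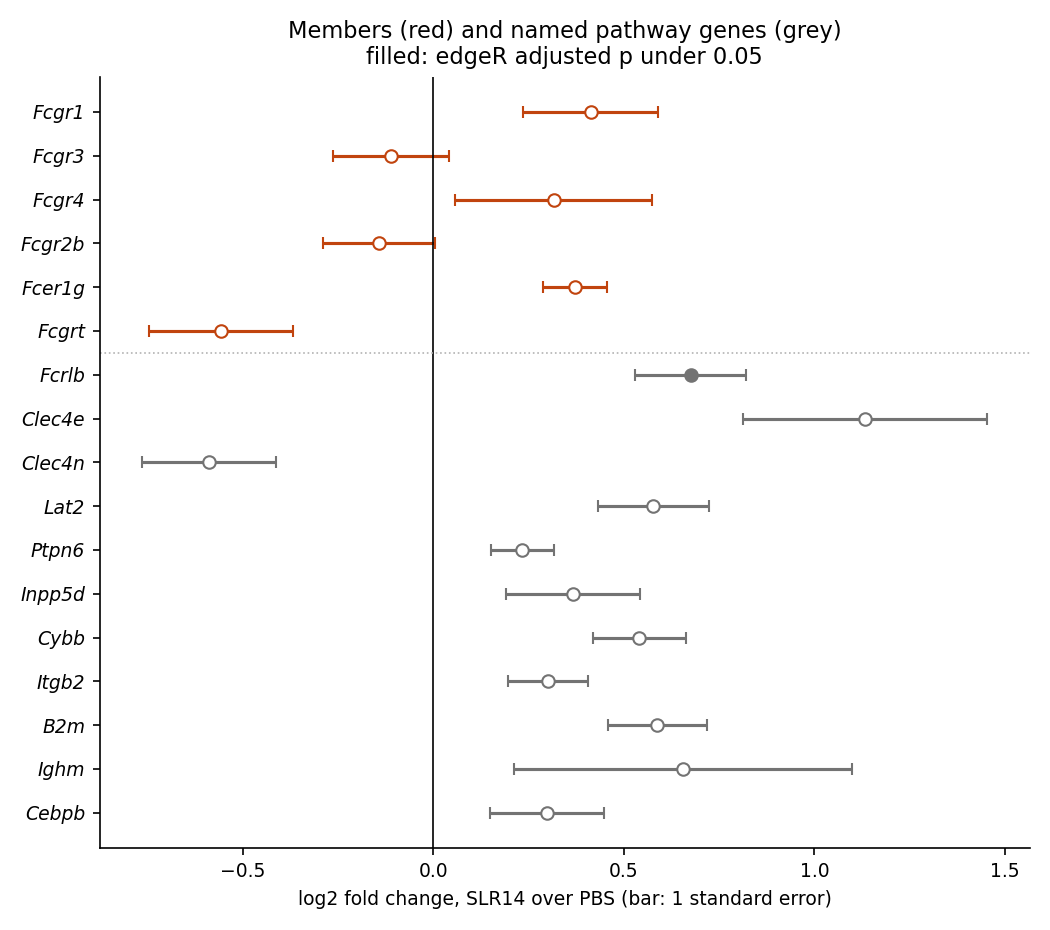
Log2 fold change, SLR14 over PBS, of the 6 Fc receptor genes (red, above the dotted line) and of named genes of the pathway lists (grey, below it), with points for the edgeR estimate and bars for 1 standard error to each side. Only Fcrlb, at 0.68, is filled, which marks an edgeR adjusted p under 0.05, and the 6 receptor genes lie between -0.56 for Fcgrt and 0.41 for Fcgr1.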

How the data were processed

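The authors deposited raw counts per gene for 10 tumours, whole numbers, and a second deposited table of normalized signal, in which each sample's counts are divided by its own factor. Per the labels' protocols, RNA was depleted of ribosomal RNA and enriched with oligo(dT) beads. STAR, Trim Galore 0.6.7, DESeq2 1.36.0 and the mm39 build were named, per the submitters' processing notes. The program that counted reads, its strand setting and its gene models were not given in the sources used here. Groups come from the sample titles. Total counts per tumour were 17931895 to 39842608, and 74 rows with no symbol held 0.0295% of counts.

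The counts were filtered with filterByExpr (minimum count 10) and normalized with TMM. edgeR 4.0.16's quasi-likelihood test (R 4.3.3) was fitted on all 10 tumours and 15883 genes with no covariate, with Benjamini-Hochberg adjustment at 0.05 and a common biological coefficient of variation of 0.190. The SE is the absolute log2 fold change over the square root of F. Alternatives were other scalings and filters, DESeq2 1.42.0, limma 3.58.1 (voom, quality weights, and the deposited normalized signal), a replicate block, other pseudocounts and omitted tumours. The scripts were tested on simulated data. Ratios and correlations used permutation tests in scipy 1.17.1. Of 20 within-group pairs of tumours, none matched within counting error (chi-square divided by its degrees of freedom was 7.66 to 134). 

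The members and gene lists were chosen with earlier results of these data known. Named genes are the 6 members, each list's genes past the threshold or otherwise its 2 with the smallest p, and the 3 genes most correlated with each member, leaving out predicted genes and pseudogenes. The values of 2 genes that this rule names are not reported here, though counts include them. Marker genes are named where a list moved between groups, or to say which markers were absent or held most of a sum.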

Additional observations from a re-analysis of the deposited data

Results flagged for a closer look

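In the SLR14 group the log2 ratio of Fcgr4 over Fcgr2b was -6.50 in SLR14 tumour 2, while the other SLR14 tumours lay between -5.53 and -5.26. The gap to the nearest of the others took up 0.776 of the group's range, above the limit of 0.71 for 5 samples. This was 1 of 18 groups of values examined, and chance alone marks about 1 in 20. The same tumour had the lowest Fcgr1 and the highest Fcgr2b of its group and rests on 27 counts of Fcgr4. The cause was not tested.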

How the results depend on the processing

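No member changed sign in its 20 alternatives, and only Fcer1g changed its call, passing under DESeq2 (0.38), quality weights (0.39) and without PBS tumour 5. Leaving out 1 tumour gave log2 fold changes of 0.29 to 0.53 for Fcgr1, -0.26 to -0.07 for Fcgr2b, -0.22 to -0.04 for Fcgr3, 0.14 to 0.48 for Fcgr4, 0.35 to 0.41 for Fcer1g and -0.72 to -0.47 for Fcgrt. The value moved by over 1.5 times for Fcgr2b without PBS 5 or SLR14 1, 2 or 3, for Fcgr3 without PBS 3 or 4 or SLR14 1, 2, 3 or 4, and for Fcgr4 without PBS 2 or 4 or SLR14 5. Differences in log2 ratio ranged from 0.37 to 0.77 for Fcgr1 and 0.29 to 0.62 for Fcgr4 over Fcgr2b. The difference in log2 ratio of Fcgr3 over Fcgr2b was -0.067 without PBS tumour 4 and -0.023 without SLR14 tumour 4, a change of sign within its error, and at most 0.13 without 1 tumour. Without PBS tumour 5 and SLR14 tumour 2 together, the differences for Fcgr1 and Fcgr4 over Fcgr2b were 0.96 and 0.76 and passed. Both tumours were set aside with their values known, so that pass is no support for a difference. Genes past the threshold numbered 153, 407 under DESeq2, 349 with quality weights, 215 without both tumours, and 69 to 194 without 1 tumour (69 without PBS 1, 78 without PBS 3, and 77, 75 and 89 without SLR14 1, 3 and 4). Same-numbered tumours did not deviate together (r from -0.25 to 0.14, 1 of 5 pairs over 0.1). The labels do not say whether the numbers pair the tumours, and 5 correlations cannot exclude it. With the replicate block 78 genes passed, the members' log2 fold changes were 0.40, -0.15, -0.12, 0.32, 0.37 and -0.58 for Fcgr1, Fcgr2b, Fcgr3, Fcgr4, Fcer1g and Fcgrt, and no member passed. The refits of the other named list genes were chosen after seeing the data: 229 kept their call, 18 gained it, 13 lost it and 0 changed sign. All 13 losses were of Fcrlb, also under upper-quartile factors, a 1 CPM filter and the replicate block. DESeq2 also called Clec4e, Lat2, Cybb and B2m among the genes named here. Among the same genes, limma voom with quality weights also called Clec4n, Lat2, Cybb and B2m. Depth limits Fcgr4 most, and the 95% intervals leave room for differences in every member that did not pass. The cause of these dependences was not tested.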
